A study of Mus musculus with 8 samples.

Results

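The derlins Derl1, Derl2 and Derl3 were examined in RNA-seq of sorted DN3 thymocytes, the CD4- CD8- stage at which developing T cells pass β-selection. The 3 genes were taken by symbol from a table of 16538 protein-coding genes. They were selected on their difference between Sel1l CKO and control libraries, which was known from earlier results of these data, so that difference is described for them and not tested. Control mice carried floxed Sel1l alleles without Cre (Sel1l-f/f, 4 libraries), and Sel1l CKO mice carried the same alleles with hCD2-iCre, a human CD2 transgene that drives recombinase in lymphoid cells and so acts in other lymphocytes besides DN3 cells (4 libraries). All mice were C57BL/6 and 6 weeks old. Nothing in the labels says whether each library came from a separate mouse, so p-values measure only the spread between these libraries.

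Derlins are membrane proteins of the endoplasmic reticulum (ER) that descend from rhomboid proteases but lack the catalytic residues. In ER-associated degradation (ERAD) they work beside the ubiquitin ligase HRD1 and its adaptor SEL1L, forming part of the path by which misfolded proteins leave the ER, and they recruit the cytosolic ATPase p97, which pulls the substrate out. DERL1 also works with other ligases, whereas DERL2 and DERL3 are the paralogues known as targets of the IRE1-XBP1 branch of the unfolded protein response (UPR). DERL3 is best known from secretory cells such as those of the exocrine pancreas.

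The sequence just before the Derl3 start is shown because Derl3 was the derlin with the largest difference between genotypes. The 250 bases before the RefSeq transcript start (GRCm38.p6) were read 5′ to 3′ on the strand of the gene, and the capitals mark 1 match, on the opposite strand, to the ER stress response element (ERSE), which is the letters CCAAT, 9 free bases and CCACG.

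Derl3 promoter, chr10:75893148-75893397, plus strand: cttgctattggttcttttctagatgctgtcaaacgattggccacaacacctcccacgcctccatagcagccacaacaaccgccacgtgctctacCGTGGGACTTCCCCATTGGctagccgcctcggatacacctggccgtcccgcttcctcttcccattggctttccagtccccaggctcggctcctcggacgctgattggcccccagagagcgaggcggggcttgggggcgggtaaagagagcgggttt

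The match lay between 156 and 138 bases before the start. The other motifs searched on both strands were ERSE-II (its 5 letters ATTGG, 1 free base, then CCACG), the UPR element TGACGTGG, the ATF4-CHOP element TGATGNAA and the RBP-J motif GTGGGAA, and none of these letters occurred in the Derl3 window. Among 32851 windows of this length, 0.113% held an ERSE, 0.0304% an ERSE-II, 0.563% the UPR element, 3.45% the ATF4-CHOP element and 5.42% the RBP-J motif. The 2 windows given for Derl2, chr11:71019304-71019553 and chr11:71019842-71020091 on the minus strand, held none of the 5 motifs. They are not printed because they cover annotated untranslated exons of Derl2 and of its neighbour Mis12. Derl1 had no entry.

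To compare the Derl3 match with those of other genes described here, each is written along its own 5′ to 3′ direction, with the fixed letters in capitals and the 9 free bases in lower case. Hspa5 encodes the ER chaperone BiP, Creld2 and Pdia6 encode ER folding factors, Syvn1 encodes HRD1 and Canx encodes the lectin chaperone calnexin.
Derl3, chr10:75893242-75893260, minus strand: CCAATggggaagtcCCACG
Hspa5, chr2:34772025-34772043, plus strand: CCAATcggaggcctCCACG
Creld2, chr15:88819520-88819538, minus strand: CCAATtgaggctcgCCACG
Pdia6, chr12:17266491-17266509, plus strand: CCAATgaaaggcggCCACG
Syvn1, chr19:6046532-6046550, plus strand: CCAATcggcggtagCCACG
Canx, chr11:50325800-50325818, minus strand: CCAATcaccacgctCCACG

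The fixed letters are the same in each by the search. The ERSE was first described on promoters of ER chaperones such as Hspa5, so their matches are no independent observation.

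**Figure D1:**
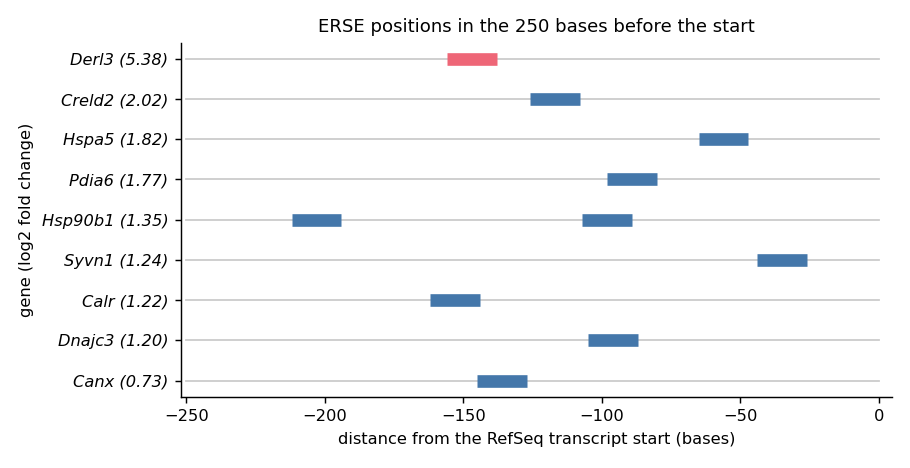
Position of each ERSE match (thick bars) in the 250 bases before the RefSeq start (x axis, bases from the start, with 0 at the start) of Derl3 and the 8 genes of the chaperone and HRD1 lists that held one; log2 fold changes of RPKM + 0.1 are in parentheses. The Derl3 match lies 156 to 138 bases before the start, and Hsp90b1 holds 2 matches.

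Of the 35 genes with an ERSE in any window, 11 besides Derl3 passed the filter of the genotype test, and 9 of these 11 rose in Sel1l CKO libraries (limma, adjusted p under 0.05). The other two, Hnrnpa3 and Pan2, were not called. Over all 6512 tested genes, 4.27% rose and 1.01% fell. A match is a description of the letters and says nothing of which factor was bound in these cells.

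Library size, cell identity and the deletion were checked next. Library totals, inferred from the RPKM values, ran from 32900253 to 50401358 reads, and which reads these totals cover was not stated. Sel1l RPKM (reads of a gene divided by its length in kilobases and by the size of the library) ran from 1.57 to 1.83 over the controls. The Sel1l CKO libraries 1 to 4 had 0.917, 0.876, 1.32 and 1.23 RPKM of Sel1l, each below every control, at 65.1% of the control mean (log2 fold change -0.59, SE 0.13, limma adjusted p = 0.0327), a call that was lost without any 1 of the control libraries or without Sel1l CKO 1 or 2 (adjusted p up to 0.0981). Reads were counted over the whole gene, so this level does not measure the deleted part alone. All 11 DN3 markers, among them Il2ra, Ptcra and Notch1, had a mean of at least 1 RPKM. Their summed level was lower in every Sel1l CKO library, at 281 to 320 RPKM against 331 to 398 RPKM in controls. Hes1 differed most, with means of 50.6 RPKM in controls and 22.6 RPKM in Sel1l CKO libraries, but overlapped between genotypes (limma adjusted p = 0.224). Il2ra (17.5 and 19.6 RPKM) and Tcf7 (81.1 and 86.3 RPKM) had higher means in Sel1l CKO libraries, and the other means were lower. Cd3e, Notch3 and Bcl11b were each below the controls in every Sel1l CKO library without passing the test (adjusted p = 0.0578, 0.179 and 0.0924), and the part of this shift in the derlin values was not tested. On the second principal component, which carried 22.1% of the variance, Sel1l CKO 3 and 4 (-15.2 and -15.8) stood apart from Sel1l CKO 1 and 2 (10.7 and 5.14), and the same libraries were the highest for all 3 derlins. Among controls, control 3 lay on the same side (-4.68, against 8.41, 8.02 and 3.43 for controls 1, 2 and 4). It was the highest control for all 3 derlins. For the derlins and the counts of each list, values without Sel1l CKO 3 and 4, with all controls kept, are given beside the results.

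The sort removed cells positive for CD11b, CD11c, Ter119, Gr-1, CD49b or B220, which mark myeloid, dendritic, erythroid, NK and B cells, and markers of cells that might remain were read in the libraries. Because DERL3 is known from secretory cells, B and plasma cell genes were read first: 9 of 11 stayed at or under 0.408 RPKM in every library, including Jchain (at most 0.109 RPKM) and Prdm1 (at most 0.00215 RPKM), and Ms4a1 and Tnfrsf17 were each listed at 0 in 6 of the 8 libraries. Of these 9, Pou2af1 was higher in every Sel1l CKO library (0.242 to 0.408 RPKM) than in every control (0.128 to 0.212 RPKM), and was not tested. The remaining markers of that list were Cd79b and Mzb1, an ER co-chaperone known from B and plasma cells, and the summed list ran from 18.8 to 20.9 RPKM in controls and from 15.8 to 37.5 RPKM in Sel1l CKO libraries. Cd79b was lower in every Sel1l CKO library (5.28 to 8.17 RPKM) than in every control (8.18 to 10.1 RPKM) without passing the test (limma adjusted p = 0.129). Mzb1 was at 12.5, 8.13, 10.3 and 10.9 RPKM in controls and 29.4, 9.96, 21.8 and 19.5 RPKM in Sel1l CKO libraries, an overlap between groups (adjusted p = 0.136). Myeloid or dendritic markers summed to between 2.51 and 3.54 RPKM in controls and between 0.852 and 2.07 RPKM in Sel1l CKO libraries. Lyz2 was the only one of them with a mean of at least 1 RPKM. It was at 2.11 to 2.44 RPKM in controls and at 1.45, 0.655, 1.54 and 1.37 RPKM in Sel1l CKO libraries 1 to 4. Within the Sel1l CKO group Lyz2 was highest in library 3 and lowest in library 2, as was Derl3, but libraries 1 and 4 had the opposite order for the 2 genes. Unlike Derl3, Lyz2 was lower in every Sel1l CKO library than in every control. The part of these other cell types in the derlin values was not tested. The summed ranges overlapped for erythroid (up to 1.12 against 2.66 RPKM), thymic epithelium (up to 0.632 against 0.561 RPKM), NK cell (from 31.1 against from 21.7 RPKM, nearly all Nkg7), DP or SP thymocyte (up to 4.94 against 5.92 RPKM), ETP or DN2 (up to 0.492 against 0.444 RPKM) and gamma-delta T cell markers (up to 5.06 against 6.35 RPKM). In bulk RNA, fewer cells of a type and less RNA per cell cannot be told apart.

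Derl3 was barely detected in controls and clearly expressed in every Sel1l CKO library. This gene (ENSMUSG00000009092.5, chr10:75893413-75895941, plus strand, GRCm38) had 11, 1, 18 and 5 reads in control replicates 1 to 4 and 595, 544, 930 and 824 reads in Sel1l CKO replicates 1 to 4. The control count of 1 read, in replicate 2, is under the 3 reads that a count of 0 would allow, and the other 3 controls were above it. As RPKM these were 0.106, 0.00823, 0.201 and 0.0521 in controls and 6.18, 4.24, 11.1 and 9.84 in Sel1l CKO libraries. The groups were far apart, with the lowest Sel1l CKO library 4.04 RPKM above the highest control, and Sel1l CKO 3 and 4 were the highest. Mean levels were 0.0919 ± 0.0831 RPKM (SD, n = 4) and 7.84 ± 3.18 RPKM (SD, n = 4), a ratio of means of 85.3. From the pooled reads (35 against 2893) the ratio after scaling to library totals was 86.6, with an exact 95% interval from 62.1 to 125 that covers counting error only. Derl3 was kept by the filter on low values, a mean of at least 1 RPKM over the 8 libraries, only through its level in Sel1l CKO libraries.

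On the log2(RPKM + 0.1) scale the Derl3 difference was 5.38 (SE 0.37). This number depends on the pseudocount, because the mean control level is itself below 0.1 RPKM: it was 2.94 with a pseudocount of 1 and 6.66 with 0.01. Without Sel1l CKO 3 and 4 it was 4.87. Spread between libraries was also widest for Derl3, with a coefficient of variation of 40.6% over the Sel1l CKO libraries and a highest level 2.62 times the lowest. The 2 Sel1l CKO libraries with the most Derl3, 3 and 4, were those with the higher remaining Sel1l level, which has only 4 libraries behind it and was not tested.

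Derl1 was already well expressed in control DN3 cells and was moderately higher in Sel1l CKO cells. It is the derlin that also couples to ligases other than HRD1 (ENSMUSG00000022365.6, chr15:57869502-57892448, minus strand). Reads were 2982, 3901, 3272 and 3227 in controls and 4273, 5226, 4242 and 3971 in Sel1l CKO libraries. The corresponding RPKM values were 3.20, 3.56, 4.06 and 3.73 in controls and 4.92, 4.52, 5.62 and 5.27 in Sel1l CKO libraries. The groups did not overlap, and the closest libraries, control 3 and Sel1l CKO 2, were 0.467 RPKM apart. The mean went from 3.64 ± 0.357 to 5.08 ± 0.471 RPKM (SD, n = 4 each), a ratio of 1.40, and the log2 difference was 0.47 (SE 0.09). Without Sel1l CKO 3 and 4, against all controls, it was 0.37 (SE 0.10).

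Derl2 differed least, and its difference came from Sel1l CKO 3 and 4. This derlin is a known member of the SEL1L-HRD1 complex (ENSMUSG00000018442.13, chr11:71007164-71019841, minus strand). Reads were 1209, 1404, 1107 and 1031 in controls and 1194, 1592, 1416 and 1529 in Sel1l CKO libraries. RPKM values were 2.35, 2.32, 2.48 and 2.16 in controls and 2.49, 2.49, 3.39 and 3.67 in Sel1l CKO libraries. Every Sel1l CKO library was above every control, but the gap between Sel1l CKO 1 and control 3 was 0.00569 RPKM, which is 2.73 reads of Sel1l CKO 1, within the counting error of its 1194 reads (95% Poisson interval 1127 to 1264). The mean went from 2.33 ± 0.134 to 3.01 ± 0.611 RPKM (SD, n = 4 each), a ratio of 1.29, with a log2 difference of 0.34 (SE 0.13). With all controls but without Sel1l CKO 3 and 4 it was 0.096 (SE 0.078). The first 231 bases of the Derl2 gene overlap Mis12 on the other strand, and whether the counting used strand was not stated.

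All 3 derlins thus had no overlap between genotypes, which is a pattern that 9.15% of the tested genes showed in the same direction, and which entered the choice of these genes.

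**Figure D2:**
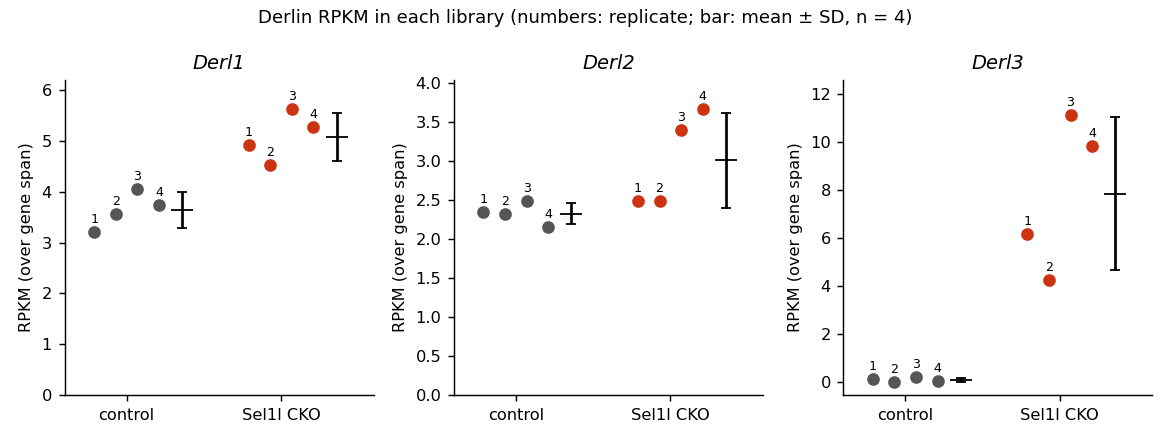
RPKM (y axis, counted over the gene span) of Derl1, Derl2 and Derl3 in each library; grey points are controls, red points Sel1l CKO, numbers are replicates, and bars are mean ± SD of 4 libraries. Derl3 goes from at most 0.201 to at least 4.24 RPKM, while for Derl2 only Sel1l CKO 3 and 4 stand clear of the controls.

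The make-up of the family was then compared, and the order of the paralogues depended on the length used. The deposited RPKM values divide reads by the whole gene span, introns included, and these spans are 22917 bases for Derl1, 12678 for Derl2 and 2544 for Derl3. The principal transcripts (GENCODE M21) are 3175, 3666 and 1321 bases long, so the deposited scale lowers Derl1 the most and Derl3 the least. Shares of the summed derlin level are therefore given on both scales.

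On RPKM, Derl3 made up 1.88%, 0.140%, 2.98% and 0.877% of the summed level in controls and 45.5%, 37.7%, 55.2% and 52.4% in Sel1l CKO libraries. Its share was highest of the 3 in Sel1l CKO 1, 3 and 4, and Derl1 was highest in Sel1l CKO 2 and in all controls. The mean share went from 1.47% ± 1.24 to 47.7% ± 7.83 (SD, n = 4) for Derl3, from 60.0% ± 2.56 to 33.1% ± 6.11 for Derl1 and from 38.5% ± 2.41 to 19.2% ± 2.23 for Derl2. Derl1 and Derl2 thus had smaller shares while their own levels were higher.

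Per kilobase of principal transcript, Derl1 was the leading derlin in all 8 libraries. Its share was 73.5%, 76.2%, 76.6% and 78.1% in controls and 63.4%, 66.0%, 55.1% and 54.6% in Sel1l CKO libraries. Derl3 took 0.652%, 0.0469%, 1.01% and 0.291% in controls and 21.2%, 16.5%, 29.0% and 27.2% in Sel1l CKO libraries. Derl3 was above Derl2 in Sel1l CKO 1, 3 and 4 and below it in Sel1l CKO 2, where Derl2 held 17.4%. On this scale these neighbours thus did not keep one order across the Sel1l CKO libraries. With the length of all exons joined, the mean Derl3 share in Sel1l CKO libraries was 19.5%, and as plain reads it was 11.1%. By RPKM and with all exons joined, Derl3 was above Derl2 in every Sel1l CKO library. As plain reads it was below Derl2 in every one. On each of the 4 scales every Sel1l CKO library had a larger Derl3 share than every control.

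**Figure D3:**
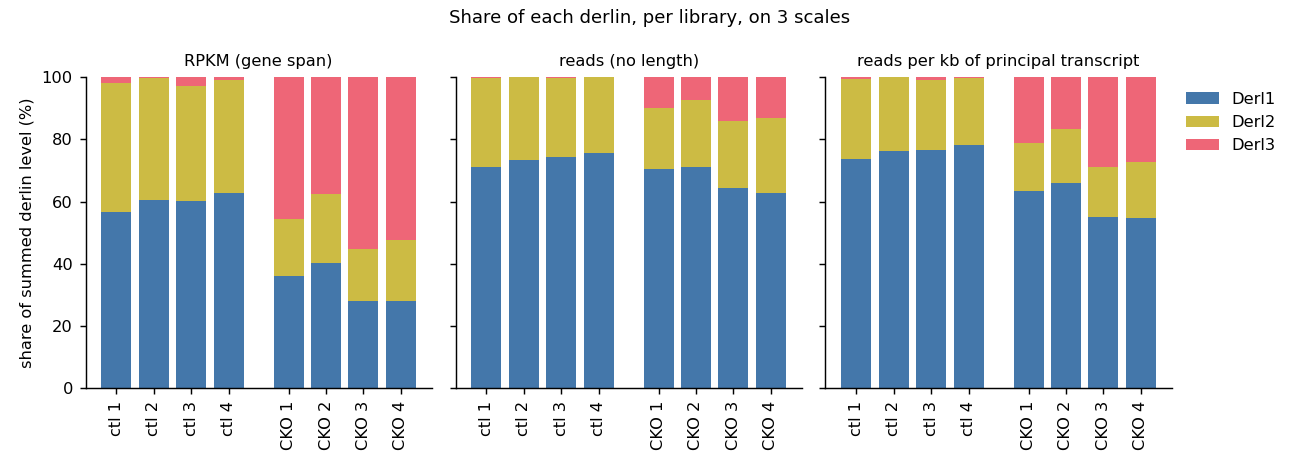
Share of the summed derlin level (y axis, percent) of Derl1 (blue), Derl2 (yellow) and Derl3 (red) in each library (x axis, ctl for control), by RPKM over gene span, by reads, and by reads per kilobase of principal transcript. Derl3 fills 37.7% to 55.2% of the Sel1l CKO bars on RPKM and 16.5% to 29.0% per kilobase of principal transcript.

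Summed derlin expression was higher in every Sel1l CKO library. The 3 genes together had 103, 111, 125 and 113 RPM (reads scaled to the library total without length) in controls and 160, 146, 200.2 and 192 RPM in Sel1l CKO libraries. The mean went from 113 to 175 RPM, a ratio of 1.54. Of the gain of 61.5 RPM, Derl1 supplied 33.2, Derl3 19.7 and Derl2 8.68. Per kilobase of principal transcript the sum went from 34.5 to 62.2, and there Derl3 supplied the most, 14.9 of the 27.7, against 10.4 for Derl1 and 2.37 for Derl2. Which paralogue gained most thus changed with the scale, whereas the gain in the sum did not change direction.

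The ratio of one derlin to another in the same library does not depend on library size. Derl1 reads per Derl2 read were 2.47, 2.78, 2.96 and 3.13 in controls and ran from 2.60 to 3.58 in Sel1l CKO libraries, which overlapped between genotypes. Derl3 reads per Derl1 read were at most 0.00550 in controls and 0.139, 0.104, 0.219 and 0.208 in Sel1l CKO libraries. Here the genotypes were far apart, and Sel1l CKO 3 and 4 were again the highest.

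Across the 8 libraries, each derlin had a different gene as its nearest in pattern (Pearson correlation of log2(RPKM + 0.1) among tested genes, given as a description). The correlations include the difference between genotypes, and for these nearest genes none was computed within a genotype. For Derl3 the 5 highest were Hspa5 (r = 0.995), Rpn2 (0.992), Spcs3 (0.992), P4hb (0.991) and Herpud1 (0.991), which encode BiP, an oligosaccharyltransferase subunit, a signal peptidase subunit, a protein disulfide isomerase and an HRD1 complex protein. Hspa5 was at 100.3, 83.2, 133 and 113 RPKM in controls and 365, 311, 422 and 406 RPKM in Sel1l CKO libraries. Its order matched that of Derl3 within the Sel1l CKO group, with 3 highest and 2 lowest. For Derl1 the 3 highest were Sar1a (0.984), a GTPase of COPII vesicles, Ufm1 (0.980), a ubiquitin-like modifier, and Ift20 (0.979). For Derl2 they were Stx5a (0.982), a syntaxin of ER-Golgi transport, Cflar (0.980), an inhibitor of caspase-8, and Rnf181 (0.980). Stx5a had the same shape as Derl2, at 6.52 and 7.11 RPKM in Sel1l CKO 1 and 2 against 11.5 and 11.7 RPKM in 3 and 4, and 5.93 to 6.41 RPKM in controls.

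The correlation between the derlins was 0.94 for Derl1 and Derl3, 0.81 for Derl1 and Derl2 and 0.78 for Derl2 and Derl3. These 8 points share the genotype difference, and on deviations from the genotype means the values were 0.66, 0.59 and 0.74.

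**Figure D4:**
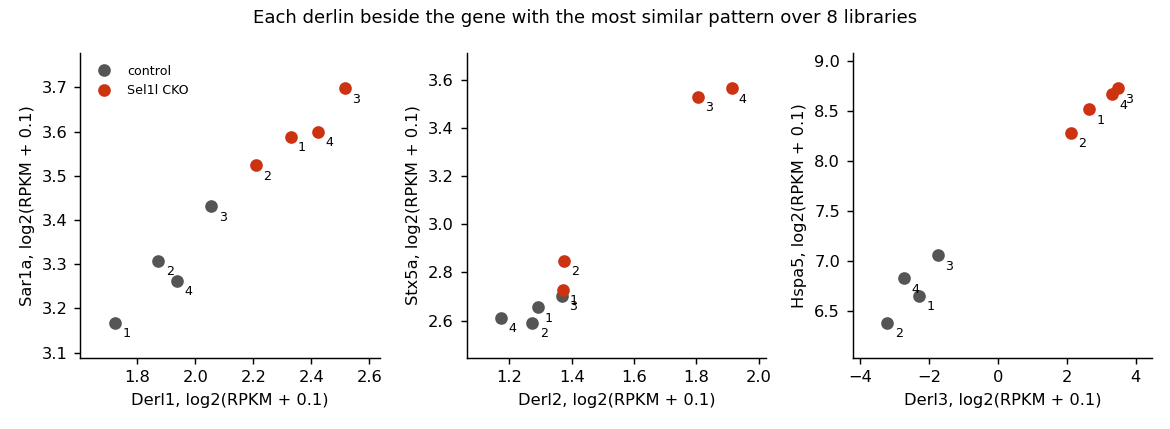
Each derlin (x axis, log2(RPKM + 0.1)) against the gene with the most similar pattern (y axis, same scale) in 8 libraries; grey points are controls, red points Sel1l CKO, and numbers are replicates. Sar1a and Hspa5 follow Derl1 and Derl3 with all Sel1l CKO libraries above the controls, whereas Derl2 and Stx5a are set apart mainly in Sel1l CKO 3 and 4.

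The partners of the derlins were read from the same test over 6512 genes, whose median log2 fold change was 0.01. Of 57 genes in the 4 lists of HRD1 complex, p97, other ligases and rhomboids, 38 were tested, 7 rose (18.4%, against 4.27% of all tested genes) and 1 fell.

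In the HRD1 complex and its lectins, which choose ERAD substrates and pass them to the derlins, 4 of 10 tested genes rose and none fell (median log2 fold change 0.25). At an unadjusted p under 0.05, 6 were higher and 0 lower, and limma voom on recovered reads called 4 higher and 0 lower. Leaving out Sel1l CKO 3 and 4 gave 4 higher and 0 lower. Herpud1, which joins HRD1 to derlins, was at 7.76, 5.88, 8.47 and 6.59 RPKM in controls and 26.6, 30.3, 32.2 and 29.4 RPKM in Sel1l CKO libraries (log2 fold change 2.04, SE 0.12, limma adjusted p = 1.2e-05). Syvn1, the ligase itself, rose by 1.24 (SE 0.15, adjusted p = 0.000972), and the mannosidase-like Edem2 rose by 1.04 (SE 0.16, adjusted p = 0.00480). The conjugating enzyme gene Ube2g2 rose by 0.34 (adjusted p = 0.0303), and lost its call without any of control 1, 3 or 4 or Sel1l CKO 1 or 3 (adjusted p up to 0.0954). The lectin gene Os9 was at 7.05 ± 0.486 and 7.39 ± 1.61 RPKM (adjusted p = 0.881), and Edem1 had means of 20.5 and 24.0 RPKM (log2 fold change 0.22, SE 0.09, adjusted p = 0.203). Without Sel1l CKO 3 and 4 the Os9 difference was -0.22 on the log2 scale (adjusted p = 0.0863), where it had been 0.05 with them. Its fellow lectin gene Erlec1 was below the filter, at 0.753 ± 0.0290 and 0.721 ± 0.149 RPKM. Among these partners no tested gene had a log2 fold change above that of Herpud1. The value for Derl3 was larger, but Derl3 was selected on this contrast and its value depends on the pseudocount. With a pseudocount of 1 the values were 2.94 for Derl3 and 1.91 for Herpud1.

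In the p97 list, 3 of 13 tested genes rose and 1 fell (median 0.11). The risers were the ATPase gene Vcp and the derlin-binding selenoprotein genes Selenos and Selenok, of which Selenos encodes the protein known for linking p97 to DERL1. Selenos went from 3.32 ± 0.544 to 8.51 ± 1.91 RPKM (log2 fold change 1.32, SE 0.17, adjusted p = 0.00143), Selenok rose by 0.81 (SE 0.15, adjusted p = 0.0140) and Vcp by 0.43 (SE 0.07, adjusted p = 0.00517). The deubiquitinase gene Yod1 fell by 0.62 (adjusted p = 0.0485), a call lost in 6 of the 8 fits that left out 1 library (each control, and Sel1l CKO 1 and 2, with adjusted p up to 0.131). The membrane recruiters Faf2 (1.80 ± 0.0406 and 1.79 ± 0.0256 RPKM, adjusted p = 0.963) and Ubxn4 (5.22 ± 1.01 and 4.91 ± 0.940 RPKM, adjusted p = 0.788) did not pass the test. Limma voom on recovered reads could test 2 of the 4 called genes, Vcp and Yod1, and called both, while Selenos and Selenok had no recovered reads. Without Sel1l CKO 3 and 4, 4 genes were called higher and 1 lower.

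Among other ERAD ligases and their partners, through which DERL1 can also work, 0 of 11 tested genes were called by limma (median -0.02, range -0.32 to 0.14). At an unadjusted p under 0.05, 1 was lower and 0 higher, and voom called 0 of 10. Without Sel1l CKO 3 and 4, 3 were called, with Ube2j2 higher and Tmub1 and Tmub2 lower. The other 5 of the 16 listed were below the filter and not tested. Of these 5, only Rnf185 had no overlap, at 0.501 to 0.516 RPKM in controls and 0.624 to 0.871 RPKM in Sel1l CKO libraries. Among the rhomboid relatives of derlins, 0 of 4 tested genes were called (median 0.00), 1 was higher at an unadjusted p under 0.05, and the other 7 of the 11 were below the filter. Voom called 2 of 8 of these, Rhbdd1 higher and Rhbdf2 lower, and without Sel1l CKO 3 and 4 Rhbdd2 was called lower and Tmem115 higher.

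In the list of ER chaperones that XBP1 and ATF6 are known to regulate, 13 of 14 genes rose and 0 fell, with a median log2 fold change of 1.51. At an unadjusted p under 0.05 the same count of 13 were higher and 0 lower, and voom called 10 of 10 higher. The counts were 13 and 0 without Sel1l CKO 3 and 4. The largest change was that of Sdf2l1, a BiP cofactor, at 2.51 (SE 0.07, adjusted p = 4.2e-07), and the smallest of those called was that of Canx, at 0.73 (SE 0.06, adjusted p = 8.5e-05). Hspa5 rose by 1.82 (SE 0.15, adjusted p = 0.000105). Dnajb9, a co-chaperone of BiP, overlapped between genotypes (log2 fold change 0.46, adjusted p = 0.575). It was at 3.97, 3.65, 13.1 and 6.91 RPKM in controls and 5.31, 5.74, 13.0 and 12.2 RPKM in Sel1l CKO libraries. Without Sel1l CKO 3 and 4, but with all controls kept, its difference was -0.13. Sel1l CKO 1 and 2 were above controls 1 and 2 and below controls 3 and 4. In the list of UPR sensors and transcription factors, 4 of 5 tested genes rose and 0 fell, and 5 were higher at an unadjusted p under 0.05. Leaving out Sel1l CKO 3 and 4, 3 of 4 tested were called higher, and Eif2ak3 was below the filter. Ddit3 rose by 1.34 (SE 0.18, adjusted p = 0.00178), Atf4 by 0.90 (SE 0.10, adjusted p = 0.000583), Xbp1 by 0.69 (SE 0.13, adjusted p = 0.0164) and Eif2ak3 by 0.58 (SE 0.12, adjusted p = 0.0238). Xbp1 lost its call without control 1 (adjusted p = 0.0514), and Eif2ak3 without control 2 or 4 or Sel1l CKO 3 or 4 (adjusted p up to 0.0754). The sensor genes Atf6 and Ern1 were below the filter and not tested. Atf6 was at 0.125 to 0.150 RPKM in controls and 0.215 to 0.321 RPKM in Sel1l CKO libraries. Ern1 overlapped between genotypes, with means of 0.738 and 0.688 RPKM. These lists were chosen with earlier results in view, so their counts are no independent evidence of direction.

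**Figure D5:**
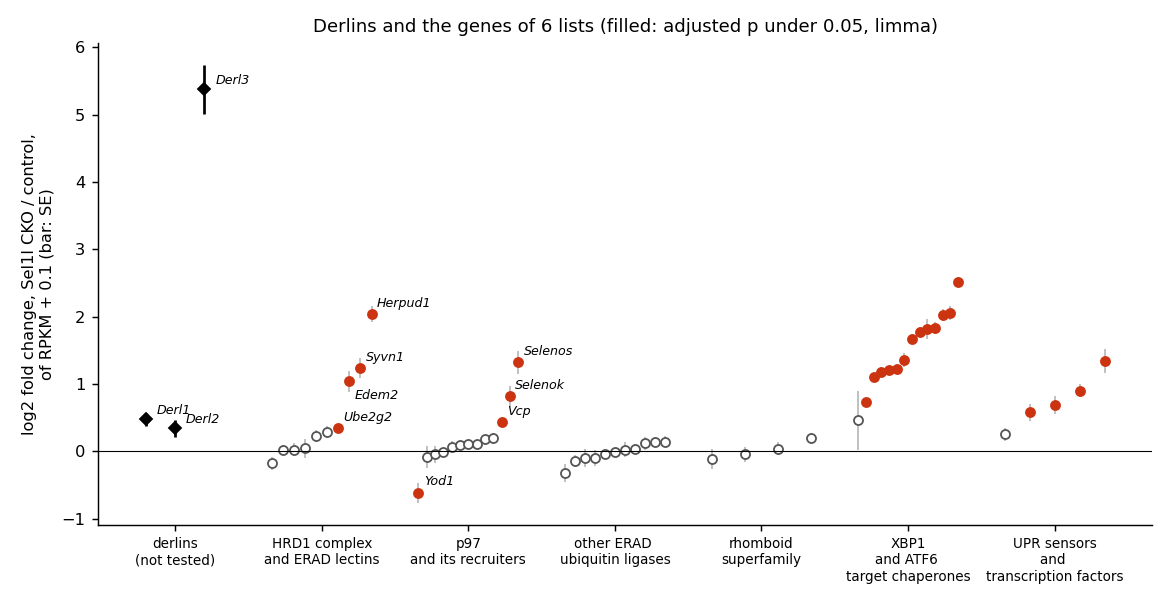
Log2 fold change of RPKM + 0.1, Sel1l CKO over control (y axis, with SE), of the 3 derlins (black, not tested) and of the tested genes of 6 lists; filled red points have an adjusted p under 0.05 in limma and open points do not. Derl3 lies at 5.38 and the highest listed gene, Sdf2l1, at 2.51. Derl3 was selected on this contrast, so its rank is no finding, and its value depends on the pseudocount (2.94 with a pseudocount of 1).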

How the data were processed

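RNA of sorted DN3 thymocytes was sequenced from 4 control and 4 Sel1l CKO libraries. The authors prepared stranded mRNA libraries, aligned paired-end reads to GRCm38 with STAR 2.5.2b, counted reads on protein-coding genes with HTSeq 2.7, tested the counts with DESeq2 and deposited RPKM values, 1 column per library. Those RPKM values were the only measurements used, and the main test was fitted on them rather than on counts.

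Low RPKM values were found to be whole multiples of 1 read when the gene span with introns (GENCODE M21) was taken as the length: this held, to within 0.02 read in each library, for 11778 genes or 75.3% of those that could be checked. This gave the library totals (32900253 to 50401358 reads) and the derlin reads. Derl1 and Derl3 came out whole with their RefSeq spans. Intervals on reads cover counting error only. Shares were recomputed per kilobase of exon and of principal transcript, the latter an alternative chosen after seeing the data.

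Genes with a mean of at least 1 RPKM (6512) were tested on log2(RPKM + 0.1) by genotype alone with limma 3.58.1 (R 4.3.3), using its mean-variance trend, two-sided, with Benjamini-Hochberg adjustment (threshold 0.05). Fold changes on this scale understate the change of low genes. The procedure was tested on simulated data. Tables were made with pandas 2.3.3, numpy 2.4.6 and scipy 1.17.1 and figures with matplotlib 3.10.9 (Python 3.11.15). Promoter sequences are from RefSeq (GRCm38.p6). They cover Derl2 and Derl3 of the 3 derlins.

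The genes named were the derlins, Sel1l, the called genes of 6 pathway lists, derlin-related members of the HRD1 and p97 lists, and the genes with the most similar pattern (5 for Derl3, 3 each for Derl1 and Derl2). The ERSE genes, the genes called only under an alternative, Dnajb9 and Mzb1 were named after their values were seen. The members and lists were chosen with earlier results of these data known. Of the listed genes, 3 markers were not analysed here. Alternatives were other pseudocounts, filters, scaling and limma settings, a replicate block, voom on recovered reads and leaving out each library. Leaving out Sel1l CKO 3 and 4 together, and comparing within replicates 1 and 2 and within 3 and 4, were added after seeing the data.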

Additional observations from a re-analysis of the deposited data

Results flagged for a closer look

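Of 98 groups of 4 libraries compared for a library far from the others (levels and shares of the derlins, and RPKM of the other named genes), 1 was flagged, and chance flags about 1 in 20. Pdia6, an ER protein disulfide isomerase, was at 12.3 RPKM in control replicate 4, against 11.6 RPKM in each of the other 3 controls. No derlin level or share was flagged.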

How the results depend on the processing

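The limits here are depth for Derl3 in controls (1 to 18 reads), the length behind any comparison of derlins with each other, and the difference of Sel1l CKO 3 and 4 from Sel1l CKO 1 and 2. No direction reversed in any alternative run for the derlins, Sel1l or the called list genes. Among named genes that were not called, Os9 turned to -0.22 without Sel1l CKO 3 and 4, -0.027 without Sel1l CKO 3 and -0.061 without Sel1l CKO 4, and Dnajb9 to -0.13 without Sel1l CKO 3 and 4. Each of these fits kept all controls, among them control 3, in which Dnajb9 was highest. Faf2 turned to 0.0071 with median-of-ratios scaling and 0.0035 without Sel1l CKO 3 and 4, and ran from -0.018 to 0.0066 without 1 library (positive without control 3 and, at 0.0028, Sel1l CKO 4). Ubxn4 turned to 0.14 with array weights and ran from -0.17 to 0.037 without 1 library (positive without control 3 and, at 0.021, Sel1l CKO 1). The log2 difference of Derl3 was 2.94 with a pseudocount of 1, 6.66 with 0.01 and 6.87 with voom on recovered reads. That of Derl2 was 0.091 within replicates 1 and 2, 0.59 within replicates 3 and 4 and 0.096 without Sel1l CKO 3 and 4. Leaving out 1 library gave 0.41 to 0.53 for Derl1, 0.24 to 0.42 for Derl2 and 5.13 to 5.63 for Derl3. Mean shares of the summed derlins in controls and Sel1l CKO libraries were, for Derl1, 86.8% and 71.0% per kilobase of exon, 73.6% and 67.2% as reads and 76.1% and 59.8% per kilobase of principal transcript. For Derl2 they were 12.8% and 9.50%, 26.1% and 21.7%, and 23.4% and 16.7%. For Derl3 the Sel1l CKO shares were 19.5%, 11.1% and 23.5%, and the control share as reads was 0.202%. RPKM shares without 1 library stayed between 30.7% and 34.8%, 18.2% and 19.99%, and 45.2% and 51.0% in Sel1l CKO libraries (Derl1, Derl2, Derl3) and between 59.1% and 61.2%, 37.5% and 39.2%, and 0.966% and 1.91% in controls.

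The count of called genes was 344 (278 higher, 66 lower). It was 218 (182 and 36) at a mean of at least 5 RPKM, where fewer genes are tested, 640 (458 and 182) with array weights, and 1328 (703 and 625) without Sel1l CKO 3 and 4, whose cause was not tested. Without 1 library it was 244 to 314, with 204 to 254 higher and 31 to 75 lower, the lowest lower count being without control 3. The HRD1 list had 2 calls at a mean of at least 5 RPKM, 6 with array weights and 3 to 4 without 1 library. Array weights added Edem1 (limma adjusted p = 0.0168) and Ube2j1 (adjusted p = 0.0208). Edem1 was also called without Sel1l CKO 1 (adjusted p = 0.0428) and Ube2j1 without control 3 (adjusted p = 0.0488). The p97 list had 3 to 4 calls without 1 library and 2 with voom, which tested only 2 of its 4 called genes. The other ligases had 3 without Sel1l CKO 3 and 4, and the rhomboids had 2 there and 2 with voom. Of 26 single genes named (Sel1l and the called list genes), 20 stayed called in every alternative that tested them; Sel1l, Eif2ak3, Selenok, Ube2g2, Xbp1 and Yod1 did not.

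With the replicate number as a block, 317 genes were called (236 higher, 81 lower), and Ube2g2 and Sel1l lost their calls. The derlin differences keep their size by construction, 0.47, 0.34 and 5.38. Same-numbered libraries correlated at 0.162, 0.0973, 0.445 and 0.0051 in their deviations from the group means, and control 1 correlated best with Sel1l CKO 2, so the numbers were not taken as pairs. Control 3 correlated at 0.445 and 0.404 with Sel1l CKO 3 and 4 and at -0.376 and -0.359 with Sel1l CKO 1 and 2. Controls 1 and 2 were positive with Sel1l CKO 1 and 2 and negative with 3 and 4. Control 4 stayed between -0.083 and 0.087. What these libraries share was not tested.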
